A study of Mus musculus with 24 samples.

Results

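The subject here is the difference between 2 mouse strains at 26 weeks of age, when the hypertension of the hypertensive strain is established: BPH/2J minus BPN/3J in the whole hypothalamus. It was read from 12 of the 24 arrays of the series, which are those titled as 26 weeks old. BPH/2J is an inbred strain bred for high blood pressure and labelled hypertensive, and BPN/3J is the normotensive strain kept beside it; the design text once writes the second name as BPN/2J, and the name on the samples is used here. All mice were male and had standard animal house treatment. Their hypothalami were taken when blood pressure peaks over the 24 hours and were not pooled, so each strain had n = 6 mice at 26 weeks. The other 12 arrays came from mice of both strains at 6 weeks, again n = 6 each, and serve below only to show how far the adult difference was present in young mice. Total RNA went onto Affymetrix Mouse Gene 1.0 ST arrays, which read transcripts along their whole length, and the deposited values are on the log2 scale, so that a difference of 1 is a 2-fold difference.

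The hypothalamus sets sympathetic tone, releases vasopressin and oxytocin, drives the stress axis through corticotropin releasing hormone and holds the master circadian clock. BPH/2J mice are known for blood pressure of neural origin, with strong sympathetic drive that is greatest in the active part of the day. Glucocorticoids released by the adrenal cortex act back on the hypothalamus through their receptor, which switches on a well known set of target genes.

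The arrays of replicates 5 and 6 stood apart from those of replicates 1-4 in both strains. The component that took most variance over all genes (35.7%) put replicates 5-6 at scores of 18.3 to 30.4 and replicates 1-4 at -23.7 to -1.67, whatever the strain. The next one (16.9%) separated the strains. BPN/3J replicate 6 lay far out on it, and its median over the probe sets without a gene symbol was 5.25 against 4.60 to 4.80 on the other 11 arrays. The labels do not say what the array sets are. A term for the array set was therefore part of the model, and 5701 of 19937 genes (28.6%) passed the test for that term. Differences within each set are given beside some of the results that they move. Of 70 named calls, counted at the end, 18 were lost within replicates 1-4, and not each of these is marked. The choroid plexus list holds markers of the tissue that makes cerebrospinal fluid. All 10 measured members were lower in BPH/2J, with a median difference of -0.42. Of them 0 passed limma's test for strain, and 2 were lower at an unadjusted p under 0.05. The list's array means ran from 5.71 to 8.48, with high and low arrays in both strains. The means of the 8 meningeal markers ran from 6.10 to 7.78 and those of the 8 pituitary markers from 4.80 to 5.58. The tissue carried markers of its label: Pmch, the precursor of melanin-concentrating hormone and made almost only in the hypothalamus, lay at 11.31 to 12.67, where the array medians over genes were 6.70 to 6.82.

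**Figure D1:**
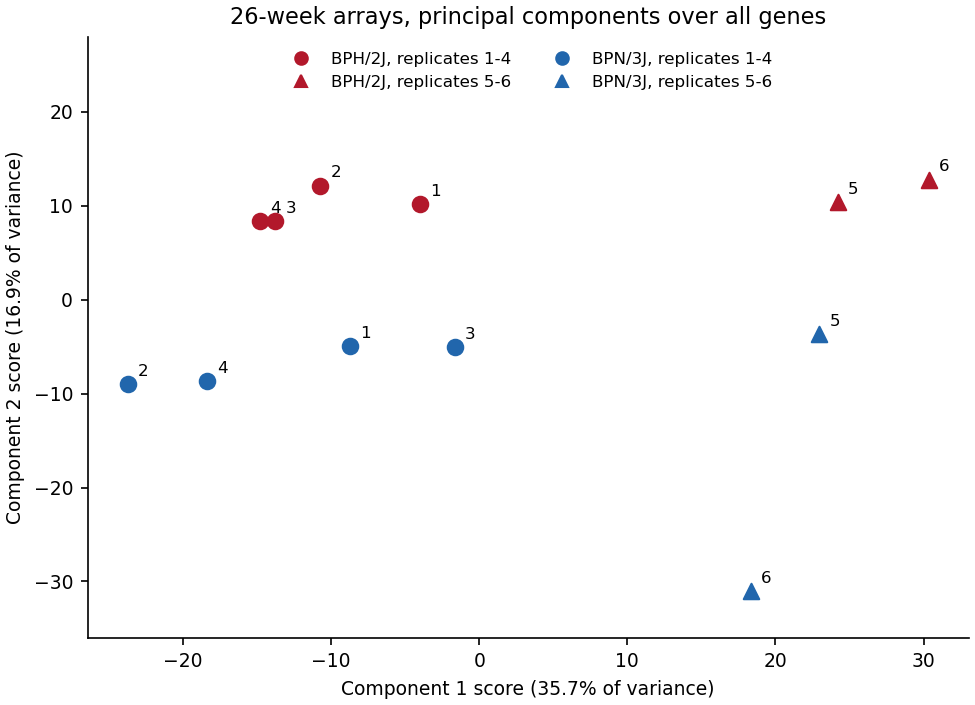
Scores of the 12 arrays of 26-week mice on principal components 1 and 2 over all genes (percent of variance on each axis), red for BPH/2J and blue for BPN/3J, circles for replicates 1-4 and triangles for replicates 5-6, with replicate numbers beside the points. The array sets lie apart along component 1 and the strains along component 2, and BPN/3J replicate 6 is the lowest point.

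At 26 weeks, 486 of 19937 genes differed between the strains at an adjusted p below 0.05 in limma's test (Benjamini-Hochberg over all genes), which is 2.44% of the genes tested. BPH/2J was higher for 242 of them (1.21%) and lower for 244 (1.22%). The difference was at least 1.5-fold for 154 and at least 2-fold for 47, and its median size was 0.46 log2 units. The 6 arrays of BPH/2J lay wholly above or below the 6 of BPN/3J for 271 of the 486, and for 348 of all genes (1.75%). All 486 had the same sign within replicates 1-4 and within replicates 5-6. Their choice by a fit over both sets favours this, and the share over all genes was not computed. In limma's test for a strain difference that depends on the array set 0 genes passed, with 1101 at an unadjusted p under 0.05. Without BPN/3J replicate 5 that count was 160, and without BPN/3J replicate 6 it was 2. With the replicate numbers as a block in place of the array set, 384 genes passed, 353 of them among the 486. Where a named call is lost with this replicate block, its adjusted p is given beside the gene. For called genes given only as outside a list, results with this block and without 1 array are not given. A missing value there does not mean that the call held. The gene lists used below hold chosen members and are not complete, so that a count is of the list and not of the whole family. Precision is limited by the number of arrays; over genes the strain difference had a median standard error of 0.08. The probe sequences of the array were not at hand. Whether the strains differ in sequence under a probe was not tested, so a call is a difference of array signal.

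Among the largest differences were those of 2 enzymes of lipid signalling, a chemokine, 2 germline genes and an RNA helicase. AI506816, a predicted gene, ran from 7.83 to 9.17 in BPH/2J (median 8.29) and from 3.36 to 4.75 in BPN/3J (median 4.12). On 5 of the 6 BPN/3J arrays it was at or below the median of the probe sets without a gene symbol. The measured difference of 4.35 ± 0.24 (SE, n = 6 per strain) is for that reason better given as at least 3.57, with each BPN/3J value raised to that median where it lay below it. Gdpd3 encodes a glycerophosphodiesterase that makes lysophosphatidic acid. Its BPH/2J values were 8.44, 8.37, 8.52 and 8.64 in replicates 1-4 and 7.66 and 7.84 in replicates 5-6, while BPN/3J lay at 4.32 to 4.82. The groups were far apart, and the difference was at least 3.41 (measured 3.66 ± 0.14, adjusted p = 2.17e-09).

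Pla2g4e, a phospholipase A2 family member that makes N-acyl phosphatidylethanolamines, lay at 7.62 to 7.99 (median 7.91) in BPH/2J and at 5.91 to 6.40 (median 6.12) in BPN/3J, a difference of 1.69 ± 0.09. The list it belongs to holds glycerophosphodiesterases and phospholipases A2 together with enzymes of endocannabinoid turnover such as Faah, Mgll and Dagla. Of its 24 measured genes 3 were higher in BPH/2J (12.5%) and 0 lower. The third was Pla2g5, a secreted phospholipase, at 0.55 ± 0.13. The groups overlapped for Pla2g5, and its call was made in only 3 of the 12 fits that left out 1 array (highest adjusted p = 0.0915) and was lost with the replicate block (adjusted p = 0.112). The median difference of the list was 0.04, beside 0.01 over all genes. Pla2g4a, a cytosolic phospholipase A2, was lower but did not pass limma's test (-0.53, adjusted p = 0.0621). Without BPH/2J replicate 3, or without BPN/3J replicate 1, the list had 1 lower call. At 6 weeks 4 genes of the list passed as higher and 8 as lower. Hpgd, which inactivates prostaglandins and was singled out after its values were seen, was higher by 1.39 ± 0.08 without overlap. Of lipoxygenase genes outside the list, Alox8 was called lower without overlap (-1.17 ± 0.15) and Aloxe3 higher with overlap (0.40 ± 0.10).

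Cthrc1, a secreted protein with a collagen triple helix repeat, was at 8.70 to 9.0 (median 8.91) in BPH/2J and at 5.94 to 6.56 (median 6.40) in BPN/3J. The gap between the groups was over 2 log2 units, and the difference was 2.55 ± 0.10 (5.84-fold, adjusted p = 2.17e-09). Of the 27 measured genes in the list of collagens and secreted matrix only Cthrc1 and Col5a2 (0.31 ± 0.07) passed, both higher. Col5a2 passed in 4 of the 12 fits that left out 1 array (highest adjusted p = 0.0915) and not with the replicate block (adjusted p = 0.056). Outside the list, the matrix gene Fbln5 was called higher (0.71 ± 0.11) and Svep1 lower (-0.45 ± 0.08). Ccl19, the chemokine that calls T cells and dendritic cells through CCR7, lay at 10 to 10.62 in BPH/2J and at 7.15 to 8.54 in BPN/3J, which is 2.15 ± 0.20 higher. Of the 24 genes in the list of chemokines and their receptors it was the only one that passed. Ccl28, a mucosal chemokine outside the list, was called lower without overlap (-0.69 ± 0.07). Ccl19 has 4 probe sets, and their mean gave a difference of 1.32. Gene names on arrays of this kind cannot separate near-identical gene copies, so the Ccl19 value may include other copies.

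Other genes among the 10 with the largest positive differences were Gm1976 (1.90 ± 0.07), Pop4, a subunit of ribonucleases P and MRP (1.55 ± 0.08), and Hdhd3, a hydrolase of the haloacid dehalogenase family (1.54 ± 0.09). For each of them the strains did not overlap.

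**Figure D2:**
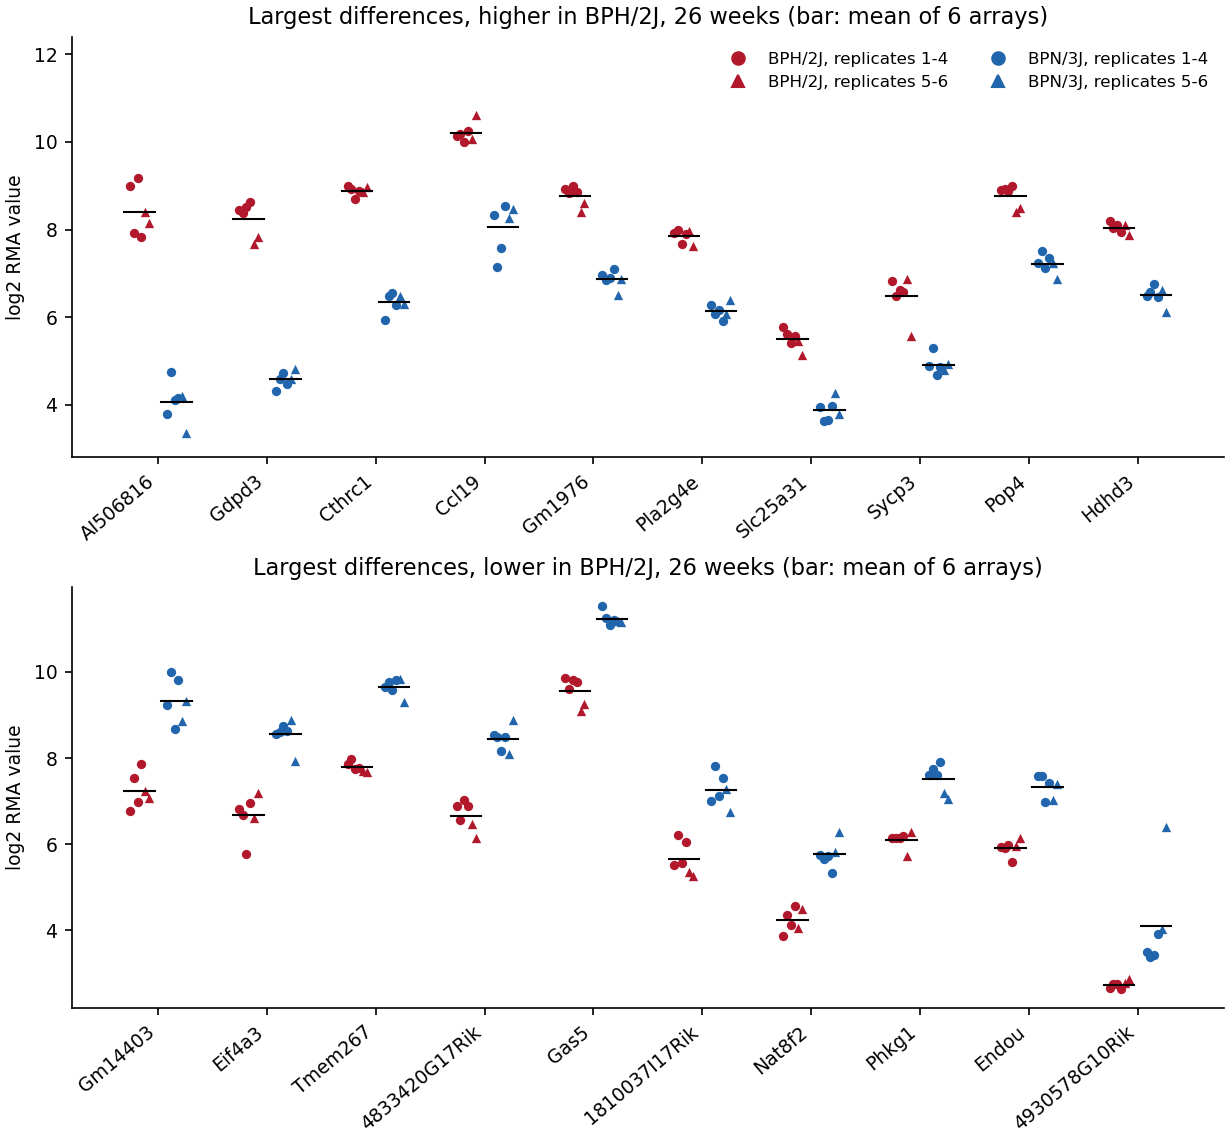
log2 RMA values of the 12 arrays of 26-week mice for the 10 genes with the largest positive and the 10 with the largest negative strain differences among called genes without overlap, red for BPH/2J and blue for BPN/3J, circles for replicates 1-4, triangles for replicates 5-6 and a bar for the mean of 6 arrays. No gene's groups overlap; 4930578G10Rik in BPN/3J rests on replicate 6, at 6.39, far above its other 5 arrays.

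On the lower side, Eif4a3, the helicase at the core of the exon junction complex that marks spliced mRNA, had BPH/2J values of 5.77 to 7.18 (median 6.75) against 7.92 to 8.89 (median 8.62) in BPN/3J. The groups did not overlap, and the difference was -1.89 ± 0.21 (adjusted p = 9.57e-05). It was the only one of 13 measured exon junction and nonsense-mediated decay genes that passed, and the list's median was 0. Gas5, a noncoding RNA that hosts small nucleolar RNAs and can bind the glucocorticoid receptor, lay at 9.08 to 9.85 in BPH/2J and at 11.08 to 11.52 in BPN/3J. Its difference of -1.67 ± 0.10 was -1.03 as the mean of its 4 probe sets, and of 5 measured genes in the list of small nucleolar RNA hosts it alone passed. Rian, another such host outside the list, was called lower with overlap (-1.59 ± 0.39).

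Tmem267, a membrane protein gene, was lower by 1.87 on the log2 scale with narrow groups, 7.68 to 7.98 against 9.31 to 9.84. Gm14403 (-2.07 ± 0.22), 4833420G17Rik (-1.78 ± 0.15), 1810037I17Rik (-1.59 ± 0.16), Phkg1, a catalytic subunit of phosphorylase kinase (-1.41 ± 0.10), and Endou, an endoribonuclease (-1.40 ± 0.12), were lower too, none with overlap. Nat8f2, of the N-acetyltransferase 8 family, was near the level of unnamed probe sets in BPH/2J (3.87 to 4.56) and was lower there by at least 1.07. 4930578G10Rik was at or below that level in all 6 BPH/2J arrays and in 5 of the 6 BPN/3J arrays. Its call (adjusted p = 0.0462) and its bound of 0.33 rest on BPN/3J replicate 6 at 6.39, without which both strains lay below that level and no difference can be given. It held in only 2 of the 12 fits that left out 1 array and not with the replicate block (adjusted p = 0.0811).

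Genes of the germline, which most somatic tissues keep silent, were dim here, with list means of 4.18 to 4.48 over the 12 arrays, and 3 of 30 measured members were higher in BPH/2J and 1 lower (13.3%). Slc25a31, the ADP/ATP carrier of the testis, was at 5.77, 5.62, 5.42, 5.56, 5.46 and 5.13 in BPH/2J replicates 1 to 6 and at 3.96, 3.62, 3.65, 3.98, 4.27 and 3.78 in BPN/3J. Every BPH/2J array was above the median of unnamed probe sets and every BPN/3J array below it, so the difference was at least 0.66 (measured 1.62 ± 0.12). Ddx4, the germ cell RNA helicase also called Vasa, lay at 4.80 to 5.84 in BPH/2J and at 3.81 to 3.99 in BPN/3J, at least 0.55 apart (measured 1.46 ± 0.15). Sycp3, a protein of the meiotic chromosome axis, was at 6.83, 6.49, 6.63, 6.57, 6.86 and 5.57 in BPH/2J and at 4.67 to 5.30 in BPN/3J. Its difference was at least 1.51 (measured 1.59 ± 0.18), and replicate 6 was the low BPH/2J array. Tex15, another testis gene, was lower (-0.71 ± 0.12). However, all 6 BPH/2J arrays and 4 of the 6 BPN/3J arrays were at or below the unnamed level, and the bound was only 0.24. Outside the list, the germline genes Cyct (0.50 ± 0.11) and Hsf2bp (0.46 ± 0.10) were called higher and Henmt1 lower (-0.64 ± 0.12). In the list the 3 higher calls and the 1 lower call were made in every fit that left out 1 array and within replicates 1-4. The list's median was 0.08.

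The promoters of the 3 germline genes that were higher are shown because they share 2 short motifs that the choice of genes did not use: the E-box CACGTG and the E2F-type site TTCCCGC, searched on both strands from 250 bases before to 50 after each start in RefSeq promoters of GRCm38.p6, which is the C57BL/6J reference and not the sequence of either strain. Capitals mark both motifs; the E-box reads the same on both strands, and GCGGGAA is the site TTCCCGC on the other strand. The windows run from 150 bases before the start to 30 after it, and they are chr3:40708721-40708900 on the plus strand, chr10:88459437-88459616 on the plus strand and chr13:112652281-112652460 on the minus strand.
Slc25a31: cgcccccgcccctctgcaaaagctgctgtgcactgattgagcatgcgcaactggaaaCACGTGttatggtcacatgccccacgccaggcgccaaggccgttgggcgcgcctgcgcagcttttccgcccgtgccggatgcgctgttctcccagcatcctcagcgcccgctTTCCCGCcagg
Sycp3: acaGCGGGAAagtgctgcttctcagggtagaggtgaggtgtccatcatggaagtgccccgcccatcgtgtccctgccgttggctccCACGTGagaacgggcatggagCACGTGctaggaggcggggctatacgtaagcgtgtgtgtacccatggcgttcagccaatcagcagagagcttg
Ddx4: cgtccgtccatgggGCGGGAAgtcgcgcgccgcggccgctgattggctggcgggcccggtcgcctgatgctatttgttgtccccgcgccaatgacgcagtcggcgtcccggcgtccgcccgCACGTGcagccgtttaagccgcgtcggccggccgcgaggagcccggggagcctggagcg

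The E-box began 93 bases before the start of Slc25a31, 64 and 43 before that of Sycp3 and 29 before that of Ddx4. Both motifs occurred together in 0.457% of 32851 promoters of this length, the E-box in 7.15% and the E2F-type site in 4.60%. Promoters were at hand for 25 of the 30 germline genes. The E-box was in 15 of these and both motifs in 6, which were Ddx4, Hormad1, Slc25a31, Stag3, Syce2 and Sycp3, so 3 genes with both motifs were not called. A match describes these letters and is not a binding site.

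In the glucocorticoid and stress response list 5 of 22 measured genes were higher in BPH/2J (22.7%, against 2.44% of all genes) and 0 were lower. The list's median difference was 0.15, beside 0.01 over all genes, and 15 of the 22 were positive. At an unadjusted p under 0.05 the list had 12 genes higher and 1 lower. Sgk1 encodes the serum and glucocorticoid regulated kinase, which acts on sodium channels and carriers, and belongs to the renin-angiotensin-aldosterone list as well. It lay at 9.19, 9.19, 9.35, 9.20, 9.26 and 9.03 in BPH/2J and at 8.53, 8.63, 8.21, 8.65, 8.79 and 8.88 in BPN/3J. All 6 BPH/2J arrays were above all BPN/3J arrays, by 0.59 ± 0.10 (1.5-fold, adjusted p = 0.00295). Plin4, a lipid droplet coat protein, was also without overlap, at 6.48 to 6.87 against 5.76 to 6.47 (0.51 ± 0.10, adjusted p = 0.00948).

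Mt2, a metal-binding metallothionein, differed by 0.38 ± 0.07. It also passed the test for the array set (0.93 higher in replicates 5-6), and the strains separated within replicates 1-4, where BPH/2J lay at 11 to 11.23 and BPN/3J at 10.62 to 10.74. Replicates 5 and 6 were at 11.93 and 11.93 in BPH/2J and at 11.88 and 11.57 in BPN/3J. Fkbp5, which restrains the glucocorticoid receptor, lay at 8.05 to 8.41 against 7.59 to 8.09 and differed by 0.37 ± 0.09 (adjusted p = 0.0379). Tsc22d3, the glucocorticoid-induced leucine zipper, differed by 0.31 ± 0.07 (adjusted p = 0.0422). These 2 calls were the weak ones: Fkbp5 passed in 2 and Tsc22d3 in 3 of the 12 fits that left out 1 array, with highest adjusted p of 0.0991 and 0.102, and Tsc22d3 was lost with the replicate block (adjusted p = 0.0845). The list held 3 to 5 calls over those fits, 4 within replicates 1-4 and 2 without the array set term, in each case 0 of them lower.

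The receptor itself, Nr3c1, had a difference of 0.06 ± 0.08 (adjusted p = 0.822), which turned to -0.04 within replicates 1-4. Other glucocorticoid targets with positive differences did not pass: Zbtb16 stood at 0.51 ± 0.13 (adjusted p = 0.0572, and 0.0266 with the replicate block), Mt1 at 0.23 ± 0.06 (adjusted p = 0.0690), Per1 at 0.27 ± 0.08 (adjusted p = 0.0964) and Klf9 at 0.20 ± 0.07 (adjusted p = 0.163). The list's negative members were Hspa1a (-0.16), Hsph1 (-0.14), Fkbp4 (-0.09), Dusp1 (-0.08), Hsp90aa1 (-0.04), Hspa8 (-0.03) and Dnajb1 (-0.01), and none passed. Crh, whose peptide starts the stress axis, stood at 0.16 ± 0.16 with overlapping groups.

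A full palindromic glucocorticoid response element, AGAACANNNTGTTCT, was found in 3 of 32851 RefSeq promoters (0.00913%) searched on both strands. Of the 18 genes of the list with a promoter at hand Sgk1 alone had it, in 1 of its 6 annotated starts. That stretch, chr10:21993670-21993769 of GRCm38.p6 on the plus strand, is shown with the element in capitals, 189 bases before that start.
Sgk1: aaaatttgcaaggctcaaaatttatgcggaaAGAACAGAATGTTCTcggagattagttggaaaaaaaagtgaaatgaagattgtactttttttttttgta

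Among circadian clock genes 2 of 21 were higher in BPH/2J (9.52%) and 0 lower, and both were called in every fit that left out 1 array. Ciart, a repressor of the clock's activators, lay at 8.76 to 9.14 (median 8.89) in BPH/2J and at 7.79 to 8.72 (median 8.36) in BPN/3J, 0.58 ± 0.11 apart without overlap. Dbp, an output gene of the clock, lay at 9.89, 9.94, 9.92, 9.82, 9.69 and 9.63 in BPH/2J and at 9.45, 9.45, 9.51, 9.36, 9.47 and 9.17 in BPN/3J. The lowest BPH/2J array was above the highest BPN/3J array, and the difference was 0.41 ± 0.06 (adjusted p = 0.00191). Cry2, a clock repressor, did not overlap either but did not pass (0.22 ± 0.06, adjusted p = 0.0892), and Per2 stood at 0.15 ± 0.08 with overlap. Clock, Arntl and the kinases of the list stood between -0.16 and 0.09. Of the 18 clock genes with a promoter at hand 5 had the E-box CACGTG, which were Bhlhe41, Ciart, Cry1, Per1 and Tef. Of the 2 called genes, Ciart had it and Dbp did not. The 130 bases before the start of Ciart, chr3:95882229-95882358 of GRCm38.p6 on the minus strand, are shown with the E-box in capitals. They were chosen because they hold it 3 times, as did 0.0883% of promoters (3 or more).
Ciart: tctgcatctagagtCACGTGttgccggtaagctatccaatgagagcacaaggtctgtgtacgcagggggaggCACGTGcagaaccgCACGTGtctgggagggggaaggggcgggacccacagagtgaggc

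Of 33 neuropeptide genes only Gal, the galanin precursor, passed (3.03% of the list). It lay at 7.80, 7.83, 7.23, 7.44, 7.90 and 7.35 in BPH/2J and at 7.23, 7.22, 6.65, 6.49, 5.98 and 6.25 in BPN/3J, a difference of 0.96 ± 0.18 (adjusted p = 0.0109). The groups touched at 7.23 without crossing. Within replicates 1-4 the difference was 0.68 and did not pass (adjusted p = 0.163), and within replicates 5-6 it was 1.51.

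Several other peptide genes had larger differences that did not pass, with arrays that spread widely within a strain. Hcrt, the orexin precursor, was at 8.72 to 10.76 (median 9.75) in BPH/2J and at 7.29 to 9.20 (median 8.75) in BPN/3J, 1.19 ± 0.34 apart (adjusted p = 0.0992). Avp, the vasopressin precursor, stood at 1.17 ± 0.38 (adjusted p = 0.153), Trh, the thyrotropin releasing hormone precursor, at 1.17 ± 0.35 (adjusted p = 0.119) and Oxt, the oxytocin precursor, at 1.14 ± 0.49 (adjusted p = 0.322). All 4 had differences of 2.20 to 2.39 within replicates 5-6 and of 0.53 to 0.66 within replicates 1-4. BPH/2J replicate 3 was the lowest BPH/2J array for Hcrt, Avp, Trh and Oxt, and without it 4 neuropeptide genes passed. Without BPN/3J replicate 6 the count was 2. The mean of the 13 hypothalamic neuron markers, which include Hcrt, Avp, Oxt and Trh, was 7.5 in BPH/2J replicate 3 and 7.79 to 8.19 in the other 5. In BPN/3J it was 7.03 and 7.07 in replicates 5 and 6 and 7.38 to 8.07 in replicates 1-4. Of these markers 0 passed limma's test for strain, and 6 were higher at an unadjusted p under 0.05. The part of these array levels in the peptide differences was not tested. In whole tissue, fewer cells of a type and less RNA per cell cannot be told apart.

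Pmch (0.41 ± 0.14), Sst (0.28 ± 0.12), Npy (-0.09 ± 0.08), Pomc (-0.20 ± 0.21) and Cartpt (-0.12 ± 0.14) had overlapping groups and did not pass. Of 45 neuropeptide receptor genes 0 passed in either direction, with a list median of -0.02. At an unadjusted p under 0.05 in limma's test 1 of them was higher and 4 lower, and 2640 of all genes (13.2%) reached that level.

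**Figure D3:**
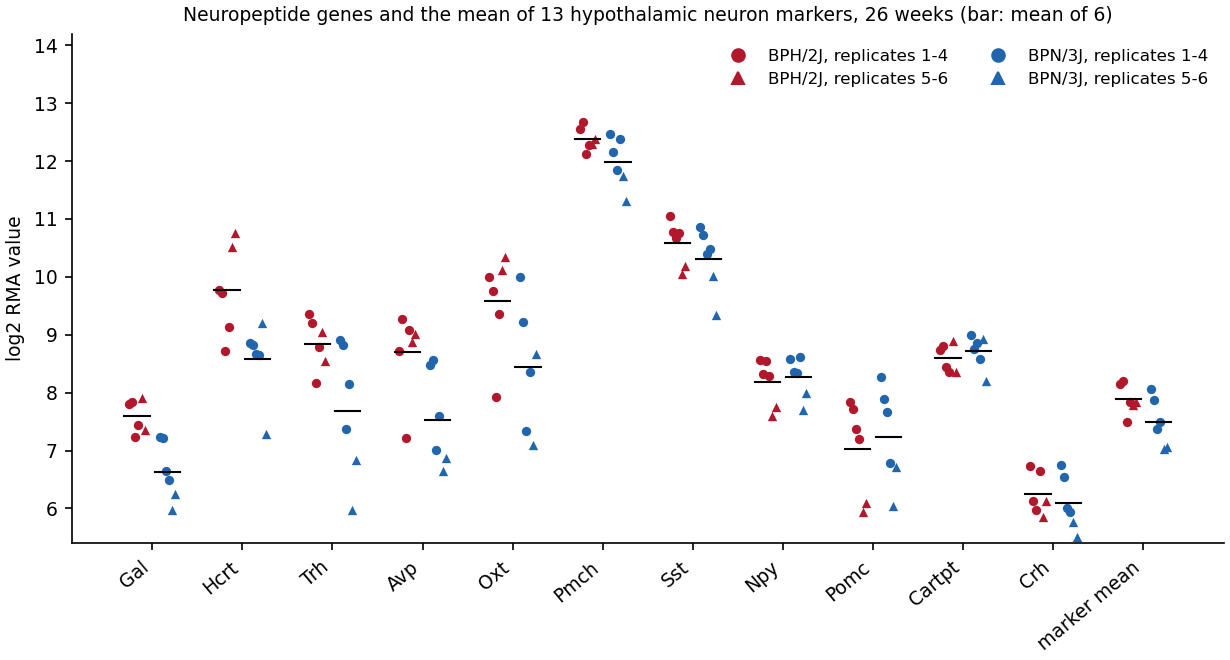
log2 RMA values of 11 neuropeptide genes on the 12 arrays of 26-week mice and, at the right, the mean of the 13 hypothalamic neuron markers on each array, red for BPH/2J and blue for BPN/3J, circles for replicates 1-4, triangles for replicates 5-6 and a bar for the mean of 6 arrays. Gal is the gene whose strains do not cross; for Hcrt, Trh, Avp and Oxt the strains are farthest apart in replicates 5-6.

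Other lists held genes of blood pressure control and of neuronal signalling. In the renin-angiotensin-aldosterone list, 1 of 19 genes was higher (Sgk1, above) and 1 lower (10.5% together), and the list's median was 0.03. The lower gene was Enpep, the aminopeptidase that trims angiotensin II (-0.31 ± 0.08, adjusted p = 0.0458), with overlapping groups and a call in 3 of the 12 fits that left out 1 array (highest adjusted p = 0.123) and none with the replicate block (adjusted p = 0.108). Agt, the angiotensinogen gene, lay at 10.97 to 11.20 against 10.77 to 11.11 (0.18 ± 0.07, adjusted p = 0.289), and the angiotensin receptor gene Agtr1a stood at 0.08 ± 0.11. Of 17 catecholamine and adrenergic genes 0 passed limma's test, with 2 lower at an unadjusted p under 0.05. Th, which makes the catecholamine precursor, ran from 7.39 to 9.25 in BPH/2J and from 7.49 to 10.86 in BPN/3J (-0.68 ± 0.35, adjusted p = 0.429), with replicate 6 the highest in BPH/2J and replicate 5 the highest in BPN/3J. In the GABA list 0 of 19 genes passed limma's test (2 higher at an unadjusted p under 0.05), and Gabra2, a GABA-A receptor subunit, stood at 0.12 ± 0.09. Of 28 sodium, calcium and HCN channel genes 0 passed (2 higher and 2 lower at an unadjusted p under 0.05).

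Of the 30 genes in the potassium channel list, Kcnn2, a small conductance calcium-activated channel, was higher (8.54 to 8.83 against 8.17 to 8.46, 0.42 ± 0.07) and Kcnk1, a background channel, lower (9.97 to 10.20 against 10.34 to 10.52, -0.37 ± 0.05). Neither overlapped, and both were called in all 12 fits that left out 1 array. Kcnh8, a channel outside the list, was called lower with overlap (-0.34 ± 0.07). The channel subunit genes Kcnip3 (-0.41 ± 0.06) and Kcnab2 (-0.30 ± 0.07), also outside the list, were called lower without overlap. Of 27 glutamate genes Glul, the glutamine synthetase of astrocytes, was higher (0.30 ± 0.07, adjusted p = 0.0290) and was called in 6 of those 12 fits and not with the replicate block (adjusted p = 0.056).

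Among 32 nitric oxide and oxidative stress genes 3 were higher (9.38%) and 0 lower. Arg2, the mitochondrial arginase that competes with nitric oxide synthase for arginine, lay at 6.41 to 6.79 in BPH/2J and at 5.62 to 6.39 in BPN/3J, which is 0.62 ± 0.07 without overlap (adjusted p = 0.000189). Mt2 was given above, and Nos1ap, an adaptor of neuronal nitric oxide synthase, differed by 0.28 ± 0.07 (adjusted p = 0.0422) but passed in 1 of the 12 fits that left out 1 array and not with the replicate block (adjusted p = 0.0506). Nos1 itself stood at -0.09 ± 0.07.

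The oxidative phosphorylation list had 36 of 43 positive differences with a median of 0.06, and 2 genes passed, both subunits of succinate dehydrogenase. Sdhc was higher by 0.39 ± 0.06 (adjusted p = 0.00289). It overlapped over all arrays, but lay at 10.22 to 10.32 against 9.76 to 9.87 in replicates 1-4. Sdhb was higher by 0.29 ± 0.07 and passed in 4 of the 12 fits that left out 1 array (highest adjusted p = 0.0881) and not with the replicate block (adjusted p = 0.0647). Respiratory chain subunits outside the list were called in both directions. Uqcr10 of complex III (-0.71 ± 0.12) and Ndufa3 of complex I (-0.32 ± 0.07) were lower, while Ndufv3 of complex I (0.28 ± 0.07) and Cox7b2 of complex IV (0.34 ± 0.08) were higher, all with overlap.

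Immune genes moved both ways. B2m, the invariant chain of class I histocompatibility molecules, lay at 9.28 to 9.79 in BPH/2J and at 10.21 to 10.73 in BPN/3J, lower by 0.83 on the log2 scale (adjusted p = 0.000135), and it was the only one of 18 MHC class I and antigen processing genes that passed. In the complement and microglia list 3 of 14 genes were higher and 2 lower (35.7%). C1qc, a chain of complement C1q, was lower without overlap, 7.20 to 7.48 against 7.56 to 8.22 (-0.55 ± 0.09, adjusted p = 0.00218). C1qb, its partner chain, was lower by 0.33 on the log2 scale (adjusted p = 0.0482; called in 2 of the 12 fits that left out 1 array; adjusted p = 0.0721 with the replicate block), whereas C1qa, the remaining chain, stood at 0.08 ± 0.08. C2 (0.45 ± 0.09), Cd14, a receptor for bacterial lipopolysaccharide (0.44 ± 0.09), and Tyrobp, a microglial signalling adaptor (0.49 ± 0.10), were higher. Tyrobp lost its call when BPH/2J replicate 2, BPH/2J replicate 3 or BPN/3J replicate 4 was left out (highest adjusted p = 0.0601), and with the replicate block (adjusted p = 0.0525). Outside the list, the complement gene C4a, a near copy of C4b (-0.41 ± 0.09) and the macrophage genes Adgre1 (-0.49 ± 0.10) and Laptm5 (-0.49 ± 0.10) were called lower, and the complement protease Masp2 (0.32 ± 0.07) and the macrophage gene Mpeg1 (0.59 ± 0.07) higher. Within replicates 1-4 the list had 0 higher and 1 lower call, which was C1qc (-0.54). The 9 microglia markers had array means of 7.22 to 7.38 in BPH/2J and of 7.12 to 7.48 in BPN/3J. Of the 23 genes in the interferon-stimulated list Ifit3 alone passed (0.53 ± 0.13), in 1 of the 12 fits that left out 1 array. Outside it, Ifit3b (0.75 ± 0.18), a near copy of Ifit3 that may share its signal, and Eif2ak2 (0.32 ± 0.07) were called higher and Gbp4 lower (-0.52 ± 0.13). All genes given as outside a list were chosen after their values were seen. Whether their calls held with the replicate block or without 1 array is not given here.

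Of 22 immediate early genes, which neurons switch on when active, Btg2 was lower (6.03 to 6.46 against 6.49 to 6.87, -0.39 ± 0.07, adjusted p = 0.00783). Within replicates 1-4 it stood at -0.37 and did not pass (adjusted p = 0.111). Fos stood at -0.43 ± 0.14 (adjusted p = 0.149). Of 16 thyroid and growth axis genes 0 passed limma's test, with 2 higher and 1 lower at an unadjusted p under 0.05. Outside the function lists, 1 of 16 thalamus markers was lower, Tnnt1, a troponin gene (7.5 to 7.73 against 8.12 to 8.85, -0.97 ± 0.10). The thalamus marker means ran from 9.32 to 9.63 in BPH/2J and from 9.18 to 9.81 in BPN/3J. Among 9 endothelial markers Slco1a4, an organic anion carrier of brain vessels, was higher by 0.66 ± 0.10. The marker lists of neurons, astrocytes, oligodendrocytes and their precursors, ependymal cells, pericytes, meninges, pituitary, cortex, striatum and red blood cells had 0 calls in limma's test, with 0 to 2 members each at an unadjusted p under 0.05.

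**Figure D4:**
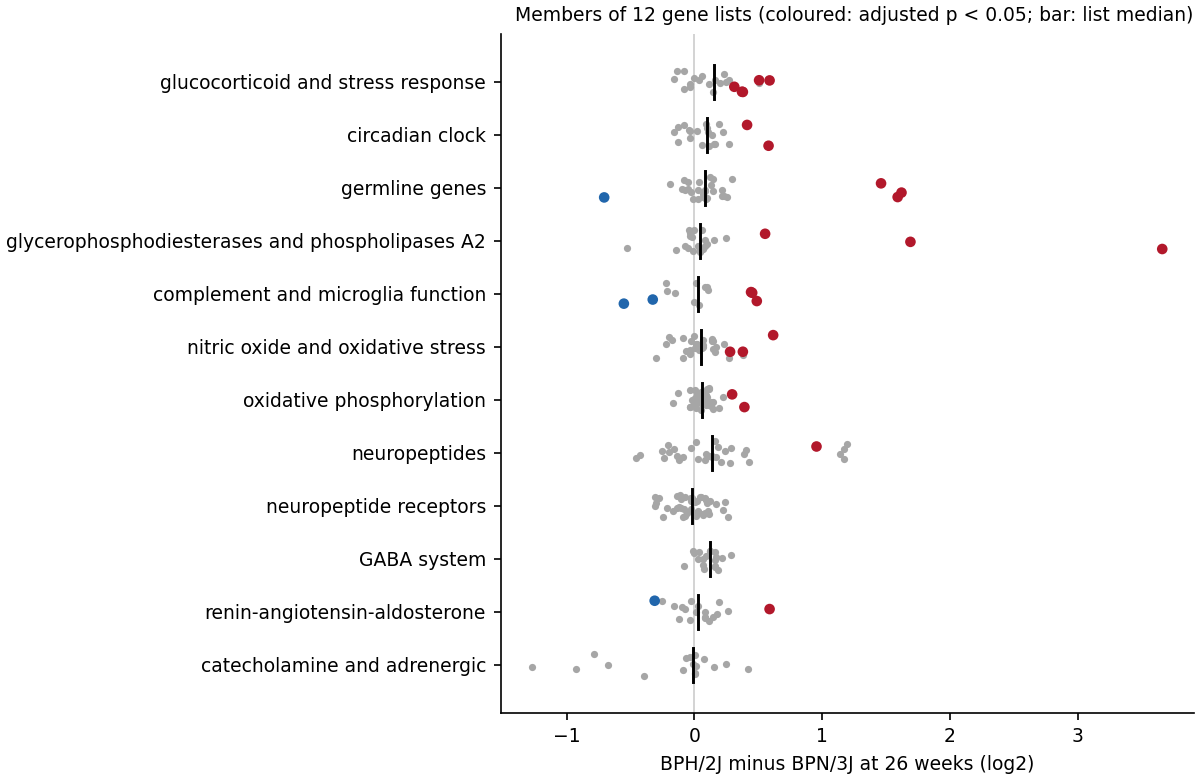
Strain differences at 26 weeks (BPH/2J minus BPN/3J, log2) of the measured members of 12 gene lists, 1 point per gene, with a black bar at the list's median; red points passed limma's test as higher, blue as lower, and grey points did not pass. The stress response list has 5 red points and none in blue, and the neuropeptide list has 4 grey points near 1.2 beside the single red point of Gal.

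Called genes often lay beside each other on a chromosome. In RefSeq gene order, 78 of the 485 called genes that could be placed (16.1%) had a called gene as neighbour, beside 4.65% of all placed genes. Of 44 neighbouring called pairs 31 had the same direction. By chromosome the share called was 5.00% on chromosome 4, 4.87% on chromosome 18 and 0.539% on the X chromosome. The genes named in these runs were picked after their values were seen. On chromosome 4, Bspry (0.30), Hdhd3 (1.54) and Alad (1.38) follow each other; Alad, an enzyme of haem synthesis, lay at 10.01 to 10.29 against 8.52 to 8.99. On chromosome 15 Cthrc1 (2.55) follows Baalc (0.63) and Fzd6, a Wnt receptor (0.64), all 3 without overlap. The pair Abhd14a and Abhd14b, hydrolase genes, was lower by 0.97 and by 1.11 on the log2 scale. On chromosome 7 the clock output gene Dbp (0.41) has Car11 (0.34 ± 0.07), a gene outside the lists, as a called neighbour. Both were higher without overlap. Bspry passed in 5 of the 12 fits that left out 1 array and not with the replicate block (adjusted p = 0.0646).

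The longest run had 8 genes, Pcdhb2 to Pcdhb9 of the clustered protocadherins, adhesion proteins of neurons. From Pcdhb2 to Pcdhb8 the differences were -0.66, -0.48, -0.44, -0.52, -1.28, -0.48 and -0.62, and for Pcdhb9 the difference was 0.84. These genes are near-identical copies in places, so signal may be shared between them and their single values are uncertain. Pcdhb7 passed in 5 and Pcdhb8 in 7 of the 12 fits that left out 1 array, and Pcdhb7 was lost with the replicate block (adjusted p = 0.0817).

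A further comparison asked how much of the adult difference was already there at 6 weeks. In the 12 arrays of 6-week mice, 2322 genes (11.6%) passed limma's test for strain, fitted there without an array set term. Without that term the count at 26 weeks was 248 and not 486, so the counts of the ages come from unlike fits. Of the 486 adult calls 335 passed at 6 weeks too (68.9% of the adult calls and 14.4% of those at 6 weeks), 333 of them with the same sign. The sign was shared by 93.6% of the 486 and by 55.9% of all genes. Eif4a3 stood at -1.86 at 6 weeks and at -1.89 at 26 weeks, Tmem267 at -1.88 and -1.87, Cthrc1 at 2.31 and 2.55, and Arg2 at 0.64 and 0.62. Of the stress response list 3 genes were higher and 1 lower at 6 weeks, with a list median of 0.11. Sgk1 then stood at 0.31 ± 0.21 (adjusted p = 0.421), with BPH/2J arrays from 7.94 to 9.44. In limma's test for a change with age, described below, 0 genes of this list passed. The change of Sgk1 was 0.28 (adjusted p = 0.656). Fkbp5 (0.41 at 6 weeks and 0.37 at 26 weeks) and Mt2 (0.30 and 0.38) were called at both ages.

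**Figure D5:**
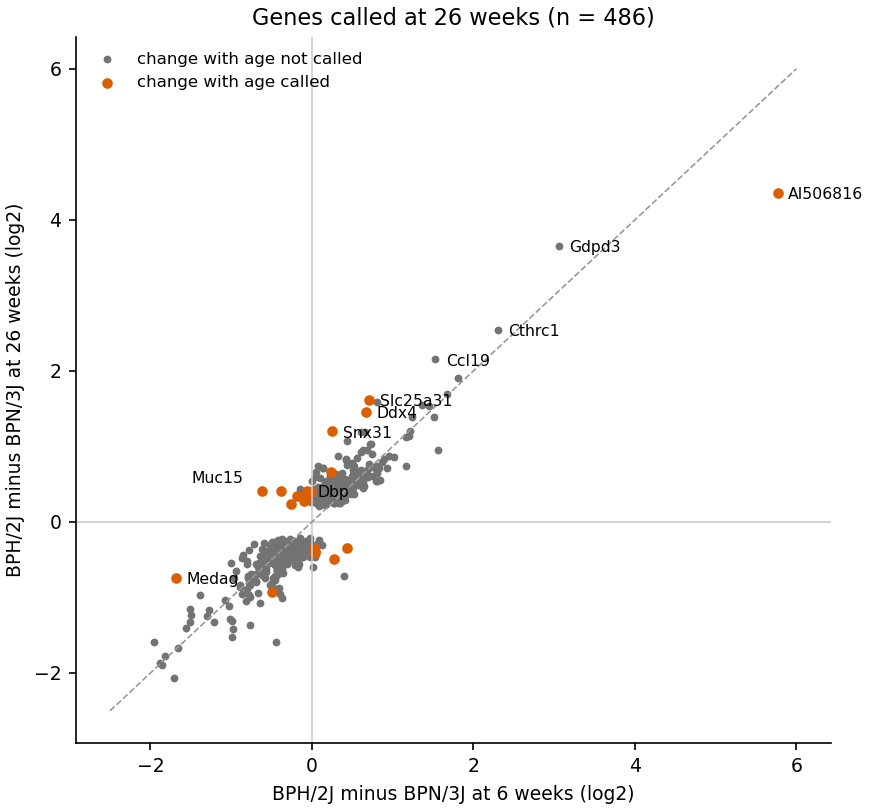
Strain difference (BPH/2J minus BPN/3J, log2) at 6 weeks on the horizontal and at 26 weeks on the vertical axis for the 486 genes called at 26 weeks; orange points also passed the test for a change of the difference with age, and the dashed line marks equal differences. Most genes lie along the line; Slc25a31, Ddx4, Snx31 and Dbp lie above it, and AI506816 had a larger measured difference at 6 weeks (5.77) than at 26 weeks (4.35).

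Whether the difference changed with age was tested directly, over all 24 arrays with the array set term. For 251 genes (1.26%) it did, 154 more positive and 97 more negative at 26 weeks. Only 22 of these were among the 486. With the replicate numbers within each age as a block 49 genes passed, 47 of them among the 251; of the genes named here for such a change, Dbp, Slc25a31, Ptpro, Pomc, Npy, Irs4 and Tcf7l2 passed with it and the other 14 did not. Dbp had no strain difference that passed at 6 weeks (-0.06 ± 0.06), when BPH/2J lay at 9.26 to 9.69 and BPN/3J at 9.54 to 9.64. Its change was 0.47 ± 0.09 (adjusted p = 0.0211). Btg2 went from 0.04 to -0.39 (change -0.43 ± 0.09, adjusted p = 0.0278). The measured differences of Slc25a31 (adjusted p = 0.0291) and Ddx4 (adjusted p = 0.0331) also passed for the change. Every BPN/3J array at both ages, and 3 and 4 of the 6 BPH/2J arrays at 6 weeks, were at or below the unnamed level for these genes, so the size of the change cannot be given. In BPH/2J, Slc25a31 lay at 4.33 to 5.01 at 6 weeks and at 5.13 to 5.77 at 26 weeks, while BPN/3J lay at 3.71 to 4.41 and at 3.62 to 4.27. The change for Sycp3 (0.78 ± 0.28) did not pass (adjusted p = 0.161), nor did that for Ciart (0.48 ± 0.17, adjusted p = 0.174).

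The other called genes whose difference moved with age included Ptpro, a receptor tyrosine phosphatase (0.44 at 6 weeks and -0.35 at 26 weeks), Muc15, a membrane mucin (-0.62 and 0.40), Medag (-1.68 and -0.74), Snx31, a sorting nexin (0.25 and 1.20), and the skeletal muscle troponin gene Tnni1 (0.24 and 0.67). Ptpro and Muc15 passed at both ages with opposite signs, and they were the only genes to do so. Ptpro was lost at 26 weeks with the replicate block (adjusted p = 0.0581). Muc15 was at the unnamed level on all 6 BPN/3J arrays at 26 weeks and on 5 BPH/2J and 3 BPN/3J arrays at 6 weeks. These 5 genes were picked after their values were seen.

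A larger group, 207 genes, passed for the change and at 6 weeks but not at 26 weeks. Pomc, the precursor of melanocortins, had a difference of 1.54 ± 0.25 at 6 weeks and -0.20 ± 0.21 at 26 weeks (change -1.74 ± 0.36, adjusted p = 0.0278), and Npy went from 1.21 ± 0.24 to -0.09 ± 0.08 (change -1.30 ± 0.28, adjusted p = 0.0291). Pomc at 26 weeks was at 7.20 to 7.83 in BPH/2J replicates 1-4 and at 5.94 and 6.10 in replicates 5-6. For Pomc and Npy the adult strains overlapped. Irs4, an insulin receptor substrate, went from 1.18 to -0.13, and the guanine deaminase gene Gda from 1.55 to 0.15. Gabrd, a GABA-A receptor subunit, went from -1.23 to 0.29, Rab37 from -1.39 to 0.17, Synpo2 from -1.03 to 0.33 and Tcf7l2, a Wnt pathway transcription factor, from -1.07 to 0.08. Synpo2 and Tcf7l2 are thalamus markers: of the 16 in that list 14 were lower in BPH/2J at 6 weeks and 1 at 26 weeks, and 6 passed for the change. Of the 13 hypothalamic neuron markers, which include Pomc, 9 were higher in BPH/2J at 6 weeks (list median 0.70) and 0 at 26 weeks (0.20), and 2 became more negative. Of the 13 oligodendrocyte markers 8 were lower at 6 weeks (list median -0.47) and 0 at 26 weeks (-0.06). The part of these markers in the changes of Pomc, Npy and the other genes was not tested. The count of 251 rested on single arrays, from 18 without 6-week BPH/2J replicate 1 to 1059 without 6-week BPH/2J replicate 2, and it was 6 without the array set term.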

How the data were processed

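The series table holds 34760 probe sets on 24 arrays as log2 values that the authors deposited. Per the submitters' processing notes RMA and limma were used; their versions and any annotation or build were not given in the sources used here. RMA equalises the arrays' distributions, so a change common to every gene on an array cannot be seen. The platform annotation gave 21640 probe sets 1 symbol, 1321 several and 11799 none; 21553 of the single-symbol ones matched a RefSeq gene of GRCm38.p6. For each of 19937 genes the probe set brightest on average over the 24 arrays was used.

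Differences came from limma 3.58.1 (R 4.3.3, lmFit and eBayes) on the 12 arrays of 26-week mice, with strain and array set as terms and Benjamini-Hochberg adjustment over all genes at 0.05; the change with age used all 24 arrays. The code was tested on simulated data. Same-numbered arrays of the strains correlated at 0.13 to 0.44 in their deviations from strain means at 26 weeks, and at -0.20 to 0.34 once the array set was removed (0.10 to 0.34 in replicates 1-4); at 6 weeks the correlations were -0.23 to 0.05. The labels do not say that a number marks a shared source. Calls lost with the replicate block are therefore given beside the results, except for genes given as outside a list. No 2 arrays were duplicates.

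The comparison, the gene lists and the rule for named genes were chosen with earlier results of these data known. The rule takes the 10 higher and 10 lower called genes with the largest difference, without overlap and with the same sign in both array sets, up to 3 called members of each of 23 function lists, up to 6 genes in each direction for the change with age, and a fixed set of hypothalamic genes. Genes outside it, such as those of the chromosome runs, the uncalled clock and glucocorticoid genes, Fkbp5, Tsc22d3, C1qa, C1qb, Tyrobp, Tnnt1, Slco1a4 and Sec24d, were chosen after their values were seen. Of 624 entries in the function lists 552 were measured; the others were not analysed here.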

Additional observations from a re-analysis of the deposited data

Results flagged for a closer look

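Among 105 of the genes named above, 210 groups of 6 arrays were checked for an array far from the rest (gap to the nearest array, over the group's range, above Dixon's critical value), and 14 held one. Chance gives about 1 in 20 groups. In BPN/3J, replicate 6 was the highest array for 4930578G10Rik (6.39) and Gabrd (8.78) and the lowest for Eif4a3 (7.92) and Hcrt (7.29). Replicate 5 of that strain was the lowest for Synpo2 (7.95), Tcf7l2 (9.23) and Tnnt1 (8.12), which are all thalamus markers, and its mean over that list was 9.18 against 9.50 to 9.81 in the other 5 BPN/3J arrays. In BPH/2J, replicate 3 was the lowest for Avp (7.22) and the highest for Sec24d (7.63), a subunit of the coat of secretory vesicles; its striatum marker mean of 9.19 and meninges marker mean of 7.54 were the highest of the strain. Replicate 5 was the highest for Cry2 (9.56) and the lowest for Phkg1 (5.72), and replicate 6 was the lowest for Nr3c1 (9.22) and Sycp3 (5.57) and the highest for Th (9.25).

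The strain difference at 26 minus that at 6 weeks passed limma's test for 16 genes named by the rule. It was more positive at 26 weeks for Rab37 (1.56), Gabrd (1.52), Nexn (1.39), Synpo2 (1.36), Zic2 (1.19), Tcf7l2 (1.15), Slc25a31 (0.91), Ddx4 (0.79) and Dbp (0.47). It was more negative for Pomc (-1.74), AI506816 (-1.42), Gda (-1.40), Irs4 (-1.30), Npy (-1.30), Scn7a (-1.29) and Btg2 (-0.43). Ptpro, Muc15, Medag, Snx31 and Tnni1, picked outside the rule and given above, passed this test too. For AI506816, Slc25a31 and Ddx4 BPN/3J was near or below the level of unnamed probe sets at both ages, so these 3 values are not exact sizes.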

How the results depend on the processing

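The count of 486 genes was 248 without the array set term (all 248 among the 486), 881 with all 24 arrays in the fit, 289 within replicates 1-4 (260 among the 486), 29 within replicates 5-6 and 154 with a minimum of 1.5-fold. It lay between 347 and 556 without 1 replicate, and between 385 and 606 under the other alternatives except for the replicate block. With the replicate block it was 384. The count of 251 for the change with age was 6 without the array set term, 49 with the replicate block, 1035 with array weights and 18 to 1059 without 1 replicate. The count of 0 for the strain by array set interaction was 0 to 160 without 1 replicate.

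The 70 named calls counted here leave out the genes given as outside a list, and Ptpro, Muc15, Medag, Snx31 and Tnni1. Of the 70, 53 passed without the array set term, 52 within replicates 1-4, 58 with the replicate block and 59 with the choroid plexus mean as covariate, with 0 changes of sign. In every fit that left out 1 array 55 passed. Signs turned for uncalled genes only: Cartpt (0.0693), Per2 (-0.0266) and Ttr (0.993) within replicates 5-6, Nr3c1 (-0.0439) and Tcf7l2 (-0.0649) within replicates 1-4, and Ttr with the choroid plexus mean as covariate (0.292). Without 1 array they turned for Gda (-0.00447 to 0.262), Nr3c1 (-0.0059 to 0.076, with -0.00344 as the other turned value) and Tcf7l2 (-0.0516 to 0.14). The cause was not tested. No detection call per probe set was used, which limits what can be said of dim genes.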
